A study of Mus musculus with 24 samples.

Results

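The 41 genes described here encode the digestive machinery of the lysosome and were followed over 24 arrays of mononuclear phagocytes sorted from mouse tibialis anterior muscle. They were taken by gene symbol from the platform annotation and fall into 5 classes: 11 cathepsins and other proteases, 13 hydrolases of lipids, glycans and glycosaminoglycans, 8 membrane proteins, 3 soluble cofactors and 6 subunits or partners of the proton pump. Of these, 40 had a probe with a single gene symbol and Cd68 had none, among 19057 named genes on the array. For a gene with several probes, the values come from the detected probe with the highest mean over the 6 groups, and all 40 members entered every test.

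Lysosomes are acidic compartments in which material taken up by phagocytosis, and worn-out parts of the cell itself, are broken down. A proton pump of many subunits, the V-ATPase, acidifies the lumen, which lets the proteases and hydrolases work, while heavily glycosylated membrane proteins shield the limiting membrane and small cofactors present lipids to the enzymes. Macrophages are rich in lysosomes, and in injured muscle they clear necrotic fibres. Many lysosomal genes carry the E-box CACGTG near their start, the core of an element bound by TFEB, TFE3 and MITF.

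The mice were adult females and males, 8 to 16 weeks old, on a C57Bl/6J background, and comprised WT, Cx3cr1-/-, Ccl2-/- and Cx3cr1-/- Ccl2-/- strains, the mutations being present in every cell and not only in phagocytes. Muscle was taken on day 4 after an intramuscular injection of notexin, a myotoxic phospholipase, or left untreated. All cells were CD11b+ Ly6G- NK1.1-. Subset 1 was F4/80low Ly6Chigh, subset 2 F4/80low Ly6Clow, subset 3 F4/80high Ly6Clow Mgl1low and subset 4 F4/80high Ly6Clow Mgl1high. Subsets 1 to 4 were sorted on day 4 (16 arrays) and subsets 3 and 4 from untreated muscle (8 arrays). Each array holds amplified RNA from 1 pool of 3 mice, from 1 sort per strain and condition, so that the 4 strains are the replicates of a group (n = 4) and a single strain has no replicate within a group. The subsets of a strain and condition share a pool, and the p-values for strains leave out the spread between mice. Values are log2 intensities after background correction and quantile normalization, on which 1 unit is a 2-fold difference, and they are compared between groups for 1 probe and never between probes. In sorted bulk RNA, fewer lysosome-rich cells and less transcript per cell cannot be told apart.

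Of 45281 probes, 7054 to 18289 were detected per array (detection p under 0.05, median 15786.5). On 4 arrays the number was under 66.7% of the median, namely those labelled Cx3cr1-/- subset 2 (7054), Cx3cr1-/- subset 4 on day 4 (9369), Ccl2-/- subset 3 untreated (9896) and Cx3cr1-/- Ccl2-/- subset 2 (10072). The 3 of them from day 4 also went against their labels in the transcript of Cx3cr1, which was at 7.21 and 6.46 in these subset 2 arrays against 6.21 in WT, and at 6.77 in the subset 4 array against 6.58 in WT. In subsets 1 and 3 on day 4 it was at 4.91 to 5.32 in Cx3cr1-deficient arrays and at 6.41 to 7.56 in the other strains. The Ccl2 transcript in subset 1 was at 9.86 in Ccl2-/- and 8.76 in WT, and since no source used here places its probe within the disrupted gene, it checks nothing. The summed signal of 5 macrophage markers was 4422 to 5391 in subset 3 on day 4 and 792 to 1600 in subset 2, while that of 9 dendritic cell markers was 1511 to 3996 and 7877 to 16842. Of 3 monocyte markers, the sum was 1770 to 2288 in subset 1 and 114 to 159 in subset 3 on day 4. All 7 muscle fibre markers with a probe were detected on all 4 arrays of subset 4 of untreated muscle (548 to 1653).

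The promoter sequences show how widely the members share the E-box. Promoters, 250 bases before to 50 after the start (RefSeq, GRCm38.p6), were at hand for 34 of the 41 members, and not for Ctsb, Ctsh, Asah1, Npc1, Atp6v0d2, Atp6v1b2 and Atp6v1h. CACGTG, which reads the same on both strands, stood in at least 1 promoter of 13 of the 34 (38.2%), against 8.09% of the 27025 genes of the table and 7.15% of its 32851 promoters. Its longer form TCACGTGA, which contains it, stood in 6 of the 34 (17.6%), against 1.12% of the genes and 0.974% of the promoters. By class, CACGTG was found in 4 of 9 proteases, 5 of 12 hydrolases, 2 of 7 membrane proteins, none of 3 cofactors and 2 of 3 pump genes. The 150 bases before the start are printed 5′ to 3′ on the gene's own strand, with CACGTG in capitals. They are given for 1 or 2 members of each class except the cofactors, in which no copy was found. The members shown carry differences described below, and all but Ctsk hold CACGTG, so they do not represent the members without it. Ctsd lies at chr7:142387828-142387977 (minus strand, with another copy farther upstream), Glb1 at chr9:114400928-114401077 (plus), Lamp1 at chr8:13159011-13159160 (plus), Mcoln1 at chr8:3500369-3500518 (plus) and Atp6v1a at chr16:44139260-44139409 (minus). Ctsk, at chr3:95499060-95499209 (plus), is shown as the member with the widest range of group means and has no copy in its window.
Ctsd: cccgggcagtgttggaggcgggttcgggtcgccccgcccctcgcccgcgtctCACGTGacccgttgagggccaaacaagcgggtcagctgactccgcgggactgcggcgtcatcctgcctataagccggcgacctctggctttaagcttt
Glb1: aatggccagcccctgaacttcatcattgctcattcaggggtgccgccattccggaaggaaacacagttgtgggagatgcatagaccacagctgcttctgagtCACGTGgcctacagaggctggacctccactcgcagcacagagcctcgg
Lamp1: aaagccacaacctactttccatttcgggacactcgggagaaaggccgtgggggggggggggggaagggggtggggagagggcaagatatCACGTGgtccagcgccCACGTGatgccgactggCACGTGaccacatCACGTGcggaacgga
Mcoln1: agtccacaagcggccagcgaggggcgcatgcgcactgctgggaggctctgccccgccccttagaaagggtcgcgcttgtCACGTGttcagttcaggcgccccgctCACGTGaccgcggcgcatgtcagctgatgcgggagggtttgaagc
Atp6v1a: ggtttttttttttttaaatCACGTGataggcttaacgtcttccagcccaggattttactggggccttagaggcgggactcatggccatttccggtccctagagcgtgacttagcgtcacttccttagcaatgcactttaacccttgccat
Ctsk: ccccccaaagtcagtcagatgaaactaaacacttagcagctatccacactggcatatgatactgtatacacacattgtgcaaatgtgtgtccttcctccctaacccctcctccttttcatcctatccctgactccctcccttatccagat
Lamp1 held 4 copies and Mcoln1 held 2 in the stretch shown. A match is a description of the letters and not of a bound site.

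Over the 6 groups, subset 3 on day 4 was the group of highest mean for 29 of the 40 members, including members of every class, and subset 2 was the lowest for 22 and subset 3 of untreated muscle for 13. The median over all members of the centred log2 intensity was 0.60 ± 0.12 (SD, n = 4) in subset 3 on day 4. It was 0.26 ± 0.14 in subset 4 on day 4, 0.15 ± 0.19 in subset 1, 0.06 ± 0.06 in subset 4 of untreated muscle, −0.35 ± 0.21 in subset 3 of untreated muscle and −0.44 ± 0.45 in subset 2. The spread of subset 2 came with its 2 arrays of few detected probes. In these the medians of the hydrolases, membrane proteins, cofactors and pump genes lay below the arrays labelled WT and Ccl2-/- of the same subset, while that of the proteases lay within their range. The median of the hydrolases was −2.56 in the array labelled Cx3cr1-/- of subset 2 and 0.14 in WT.

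**Figure D1:**
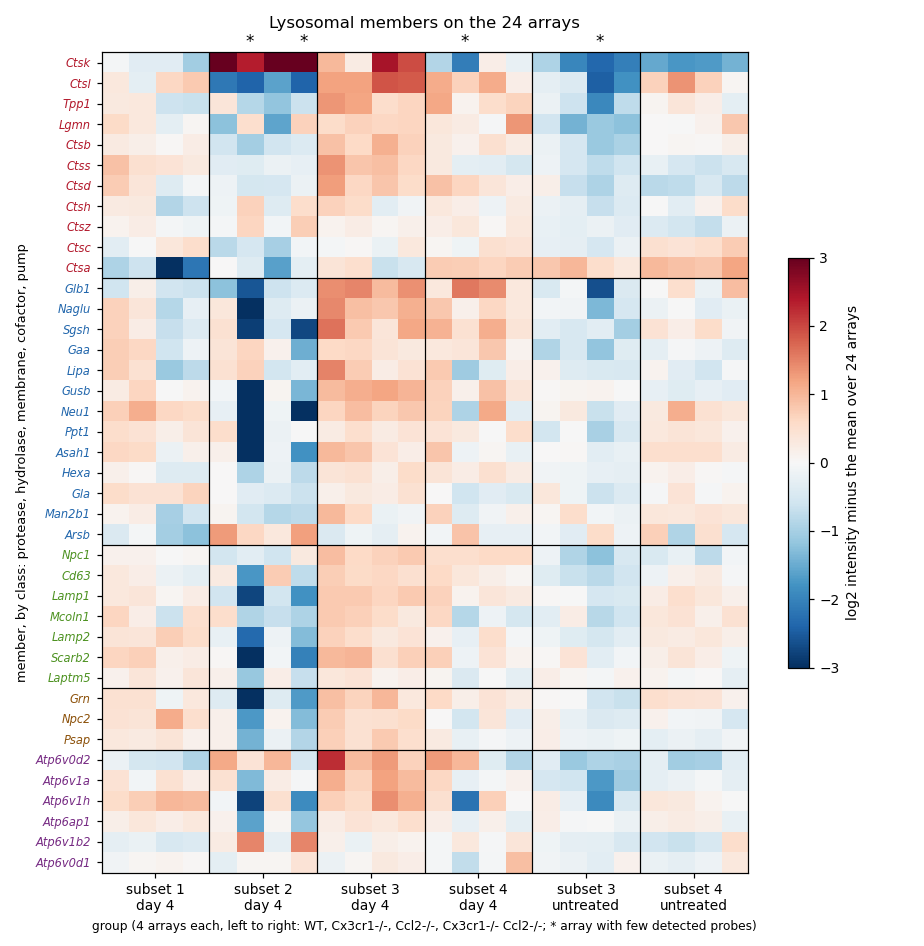
Log2 intensity of each of the 40 members on the 24 arrays, minus its mean over them (colour, from −3 to 3; values past these limits take the end colour), with rows by class and columns by group and strain. Stars mark the 4 arrays with few detected probes; subset 3 on day 4 is red in all classes, and the starred subset 2 arrays are blue mainly among hydrolases, membrane proteins and cofactors.

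**Figure D2:**
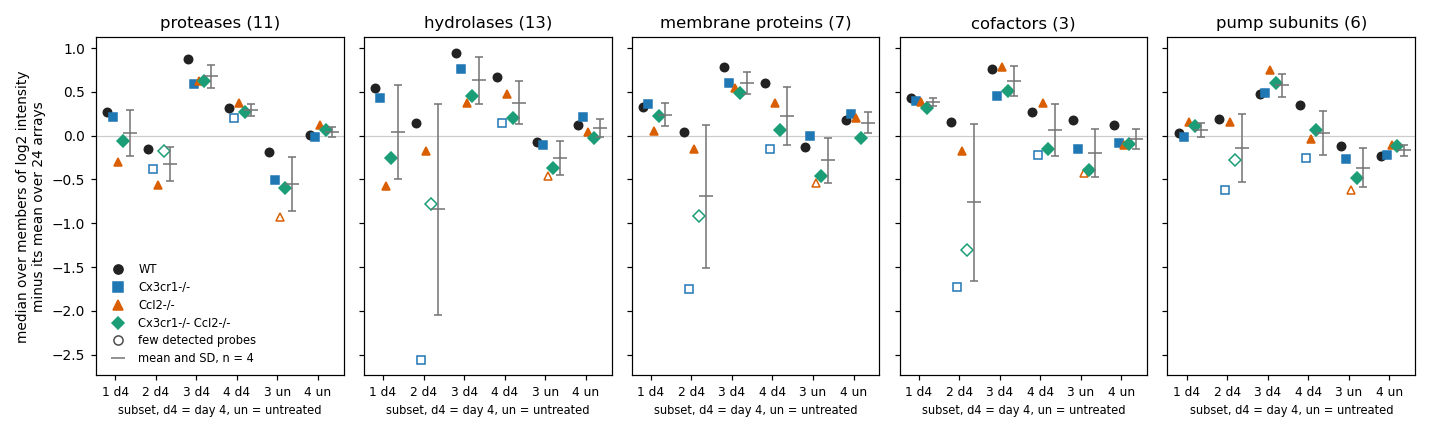
Median over the members of a class of the centred log2 intensity, 1 point per array, with the mean and SD of the 4 strains beside it; open symbols are arrays with few detected probes. In all 5 classes the mean of subset 3 on day 4 lies above that of subset 3 of untreated muscle, from −0.55 to 0.68 in the proteases and from −0.37 to 0.58 in the pump.

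The first comparison asked how the members differed in the Mgl1low macrophages, subset 3, between injured and untreated muscle. Of the 40 members, 25 rose and none fell (limma, Benjamini-Hochberg adjusted p under 0.05 over 15624 probes), against 9.06% of all tested probes called higher and 6.42% called lower. The difference was positive in 38 of 40, with a median of 0.98 ± 0.12 log2 units (SD over 4 strains) against 0.10 over all probes. In 31 members all 4 day-4 arrays were above all 4 untreated arrays, which held for 15.7% of the probes. The classes had medians of 1.44 in the proteases (7 of 11 rose), 0.97 in the membrane proteins (6 of 7), 0.96 in the pump (2 of 6), 0.92 in the hydrolases (7 of 13) and 0.78 in the cofactors (3 of 3). The order of the classes was not tested, and the SDs over strains, 0.05 to 0.46, are as wide as most gaps between them.

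Among the proteases that rose was Ctsk, which encodes cathepsin K, a collagen-degrading protease best known from osteoclasts. In subset 3 on day 4 its log2 intensity was 7.84 in WT, 7.14 in Cx3cr1-/-, 9.36 in Ccl2-/- and 8.83 in Cx3cr1-/- Ccl2-/-, against 5.95, 4.91, 4.53 and 4.83 in untreated muscle, where 1 of the 4 arrays was above background. The day-4 arrays were all higher, and the fitted difference, whose lower side is set by arrays mostly at background, was 3.24 ± 0.48 (SE, limma, adjusted p = 0.00026). The summed signal of the 3 osteoclast markers went the other way, without overlap. It was at 107 to 156 on day 4 and 207 to 335 in untreated muscle. Acp5, 1 of these markers, was higher on day 4 (mean log2 intensity 6.53 against 5.79), and the part of osteoclasts was not tested. Ctsl, the gene of cathepsin L, a cysteine endopeptidase of broad range, was at 8.06, 8.04, 8.72 and 8.69 on day 4, and at 6.58, 6.42, 4.39 and 5.04 in untreated muscle, the last 2 of these not above background. These groups did not overlap either, with a fitted difference of 2.77 ± 0.42 (limma, adjusted p = 0.000321). Tpp1, which encodes a tripeptidyl peptidase, was at 7.87, 7.73, 7.07 and 7.19 against 6.38, 5.93, 4.62 and 5.79, and rose by 1.79 ± 0.33 (limma, adjusted p = 0.00172).

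Lgmn, the gene of legumain, an asparaginyl endopeptidase, rose by 1.71, Ctsb, of cathepsin B, by 1.5, Ctss, of cathepsin S, which trims the invariant chain of MHC class II, by 1.44, and Ctsd, of the aspartic protease cathepsin D, by 1.27. Ctsc, whose product activates granule proteases, did not pass at 0.32, nor did Ctsz, an exopeptidase gene, at 0.40. Ctsh, the aminopeptidase gene with the narrowest range of group means among the proteases, was at 11.01, 10.87, 10.004 and 10.21 on day 4 and at 10.15, 10.05, 9.63 and 9.92 in untreated muscle. These arrays overlapped, since Ccl2-/- on day 4 lay below WT and Cx3cr1-/- of untreated muscle, and the difference was 0.58 (limma, adjusted p = 0.137). Ctsa, which encodes the protective protein of the galactosidase and sialidase complex, was at 10.96, 11.08, 9.89 and 10.10 against 11.39, 11.56, 11.09 and 10.89. Its difference of −0.72 did not pass (limma, adjusted p = 0.0704), and its other 3 probes had differences of 0.54, 0.38 and 1.21, the last of which passed (0.0165), so that the probes of this gene disagreed in sign.

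Among the hydrolases, Glb1, the gene of lysosomal beta-galactosidase, was at 8.92, 8.99, 8.48 and 8.89 in subset 3 on day 4 and at 7.06, 7.47, 4.89 and 7.10 in untreated muscle, with the low value of Ccl2-/- on the array with few detected probes. All day-4 arrays were higher, and the difference was 2.19 ± 0.46 (limma, adjusted p = 0.00413). Gusb, which encodes beta-glucuronidase, was at 10.56, 10.70, 10.79 and 10.63 against 9.64, 9.70, 9.73 and 9.59. Its 2 groups were tight and far apart, with a rise of 1.01 ± 0.20 (limma, adjusted p = 0.00234). Sgsh, a sulfamidase gene of heparan sulfate breakdown, was at 9.31, 8.46, 8.06 and 8.84 against 7.36, 7.19, 7.36 and 6.66 and rose by 1.52. Naglu, of the same pathway, rose by 1.56, Gaa, the acid glucosidase of glycogen, by 1.21, and Ppt1, a palmitoyl thioesterase gene, by 0.85. Hexa, of beta-hexosaminidase, had the narrowest range of the hydrolases and was at 11.76, 11.82, 11.54 and 11.92 against 11.26, 11.24, 11.11 and 11.09. It rose by 0.58 (limma, adjusted p = 0.0377), and did not pass with the strain as a block (adjusted p = 0.0515).

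Neu1, the sialidase gene, was at 9.34, 9.62, 9.37 and 9.50 against 8.79, 8.99, 8.04 and 8.35. Its groups did not overlap, but the difference of 0.92 did not pass (limma, adjusted p = 0.0956). Lipa, the acid lipase of cholesteryl esters and triglycerides, and Asah1, of acid ceramidase, had differences of 1.03 and 0.72 (limma, adjusted p = 0.0554 and 0.0579), and both passed with the strain as a block (adjusted p = 0.0187 and 0.0385). A second probe of Lipa had 0.97 and passed (limma, adjusted p = 0.0419), while the other probes of Asah1 had −0.01 and −0.06 and did not pass. Gla, Man2b1 and Arsb, of alpha-galactosidase, lysosomal alpha-mannosidase and arylsulfatase B, had 0.48, 0.23 and −0.18 and did not pass.

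Of the membrane proteins, 6 of 7 rose. Lamp1, a main glycoprotein of the lysosomal membrane, was at 11.74, 11.74, 11.62 and 11.76 on day 4 and at 10.99, 10.95, 10.47 and 10.51 in untreated muscle, a rise of 0.99 ± 0.21 (limma, adjusted p = 0.00397) between groups that did not overlap. Lamp2, its relative in the membrane and in autophagy, was at 11.87, 11.70, 11.48 and 11.59 against 11.05, 10.82, 10.64 and 10.86 and rose by 0.82. Of its 5 other tested probes, 4 had positive differences of 0.71 to 1.04 and 1 had −0.99 (limma, adjusted p = 0.0191). Npc1, the cholesterol exporter of the membrane, was at 10.11, 9.79, 9.89 and 9.97 against 9.04, 8.28, 7.96 and 8.71 and rose by 1.44 (limma, adjusted p = 0.000703). Its other tested probes had 1.39, 1.48 and 1.62, which passed, and −0.16 and −0.37, which did not. Cd63, a tetraspanin gene, rose by 1.21, Mcoln1, of the calcium channel TRPML1, by 0.97, and Scarb2, of the receptor that carries glucocerebrosidase to the lysosome, by 0.79, at 10.30, 10.35, 9.81 and 10.04 against 9.36, 9.75, 9.01 and 9.24. A second probe of Scarb2 had 0.20 and did not pass. The Mcoln1 probe was above background on 1 of the 4 untreated arrays, and its rise did not pass without background correction (limma, adjusted p = 0.0639), on the processed values, with no detection filter, or when WT, Ccl2-/- or the double mutant was left out. Laptm5, a transmembrane protein gene of haematopoietic cells, had the narrowest range of the class, at 12.88, 12.94, 12.64 and 12.75 against 12.75, 12.60, 12.49 and 12.68, and its difference of 0.17 did not pass.

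All 3 cofactors rose. Grn, which encodes progranulin, the precursor of granulins, was at 11.86, 11.62, 11.96 and 11.28 against 10.98, 10.95, 10.39 and 10.29 and rose by 1.03 ± 0.23 (limma, adjusted p = 0.00617). Npc2, the carrier that hands cholesterol to Npc1, was at 12.99, 12.68, 12.70 and 12.81 against 12.40, 12.01, 11.81 and 11.84 and rose by 0.78. Psap, the precursor of the saposins, which help hydrolases reach sphingolipids, was at 13.44, 13.18, 13.51 and 13.23 against 12.91, 12.57, 12.53 and 12.60 and rose by 0.69. In each of the 3, every day-4 array was above every untreated array.

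Of the pump, Atp6v1a, the catalytic subunit of the cytosolic V1 part, was at 9.38, 8.95, 9.49 and 9.24 in subset 3 on day 4 and at 7.78, 7.68, 6.58 and 7.23 in untreated muscle, a rise of 1.95 ± 0.27 (limma, adjusted p = 0.000118). Atp6v0d2, an alternative d subunit of the membrane V0 part that osteoclasts and some macrophages use, was at 8.15, 6.89, 7.20 and 6.63 against 5.61, 4.82, 5.01 and 4.96, where 1 of the 4 untreated arrays was above background, and rose by 2.12 ± 0.43 (limma, adjusted p = 0.00293). In both genes the groups were apart. Atp6v0d1, the common d subunit, had the narrowest range of the pump genes, at 8.93, 9.15, 9.39 and 9.29 against 8.99, 8.92, 8.79 and 9.23. The arrays of this gene overlapped and the difference was 0.20 ± 0.28 (limma, adjusted p = 0.655). Atp6v1h, a regulatory V1 subunit, had 1.54 (adjusted p = 0.0524), and Atp6v1b2 and the accessory protein gene Atp6ap1 had 0.35 and 0.37.

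Without the 4 arrays of few detected probes, 27 members rose in subset 3, among them all 25, as did 10.6% of probes. Of the 25, 18 passed when WT was left out, 22 when Cx3cr1-/- was, 18 when Ccl2-/- was and 17 when the double mutant was. In the same subset the summed signal of the 5 macrophage markers was 4422 to 5391 on day 4 and 2575 to 3991 in untreated muscle, that of the 9 dendritic cell markers 1511 to 3996 and 4834 to 6157, and that of the 3 monocyte markers 114 to 159 and 318 to 539. None of these ranges overlapped, and the part of other cells in the differences was not tested. Of the macrophage markers, Cd14 was lower on day 4 (mean log2 intensity 8.96 against 9.75). Adgre1 (11.64 against 10.94), Csf1r, Fcgr1 and Mertk were higher. Among the dendritic cell markers, H2-Ab1, the strongest of them, had mean log2 intensities of 10.88 on day 4 and 12.24 in untreated muscle. Cd209a (4.60 and 6.47), Zbtb46 (5.20 and 5.92) and Ciita (5.38 and 5.65) were also lower on day 4. Itgax (8.93 and 7.99) and Fscn1 (5.56 and 5.16) were higher, and Flt3, Ccr7 and Clec9a were not above background in either group. Scaling the arrays to 1 median in place of quantile normalization moved the median of all probes from 0.10 to 0.65, with 4247 probes higher and 279 lower against 1415 and 1003, and 32 members higher and none lower. Of the 33 members with a promoter and a probe, 10 of the 13 with CACGTG rose (median difference 1.27) and 12 of the 20 without it (0.80), with no test made of this split. Among the 20 further probes of the members that rose, 17 had a positive difference and 10 of these passed.

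In subset 4, the Mgl1high macrophages, 4 of the 40 members rose on day 4 and none fell, against 1.05% of probes called higher and 2.91% called lower. The median difference was 0.12 ± 0.20 (SD over strains) against −0.11 over all probes, with class medians between 0.01 in the cofactors and 0.23 in the proteases. Ctsd rose by 1.24 ± 0.26 (limma, adjusted p = 0.0128), from 7.89, 7.92, 8.21 and 7.90 in untreated muscle to 9.58, 9.34, 9.06 and 8.90 on day 4, with no overlap. Npc1 rose by 0.94 (adjusted p = 0.0371), Gusb by 0.82 (0.0266) and Ctsz by 0.68 (0.0483), of which Ctsz did not pass with the strain as a block. Of the 9 further probes of the members that rose, 8 had a positive difference and 2 passed, those of Gusb and Ctsz. The other tested probes of Npc1 had differences of −0.40 to 0.74, and none passed. Gusb was at 9.36, 9.24, 9.37 and 9.26 in untreated muscle and at 10.30, 9.76, 10.49 and 9.97 on day 4. Ctsl, which rose in subset 3, was at 7.96, 7.54, 7.95 and 7.03 on day 4 and at 7.53, 8.19, 7.54 and 6.91 in untreated muscle, overlapping ranges with a difference of 0.08 ± 0.42. Between day 4 and untreated muscle in this subset, the summed signal of the 3 monocyte markers was 296 to 789 against 88.5 to 178 and that of the 7 muscle fibre markers 294 to 485 against 548 to 1653. Neither pair of ranges overlapped, and the part of these cells in the differences of subset 4, or in the comparison of the subsets, was not tested. Of the monocyte markers, Plac8 carried the difference, with mean log2 intensities of 8.43 on day 4 and 6.07 in untreated muscle. Ly6c1 was at 5.82 and 5.93, and Ccr2 at 5.96 and 5.89. Only 1 member passed when WT or Ccl2-/- was left out and 0 when Cx3cr1-/- or the double mutant was.

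The test of the difference itself asked whether the change from untreated to injured muscle was unequal in subsets 3 and 4. It was smaller in subset 4 for 9 members and larger for none (limma interaction, adjusted p under 0.05), against 4.65% of probes called lower and 3.08% called higher. The median interaction was −0.91 log2 units over the members and −0.26 over all probes. The 9 comprised 5 of 11 proteases, 3 of 7 membrane proteins, 1 of 6 pump genes and none of the 13 hydrolases or 3 cofactors. The class medians were −1.19 in the proteases, −0.93 in the membrane proteins, −0.90 in the hydrolases, −0.86 in the pump and −0.77 in the cofactors. The interaction was −2.69 ± 0.60 for Ctsl (limma, adjusted p = 0.0213), −2.38 for Ctsk (0.0429), −1.65 for Atp6v1a (0.0232), −1.54 for Mcoln1 (0.0364) and −1.48 for Lgmn (0.038). It was −1.28 for Ctsb (0.0283), −1.19 for Ctss (0.041), −0.996 for Lamp2 (0.0465) and −0.98 for Cd63 (0.0446). With the strain as a block, Lamp2 and Cd63 did not pass and Grn did. Scaled to 1 median, 29 members were called lower and none higher, as the median of all probes moved to −1.16 with 5970 probes lower and 143 higher, against 726 and 481.

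**Figure D3:**
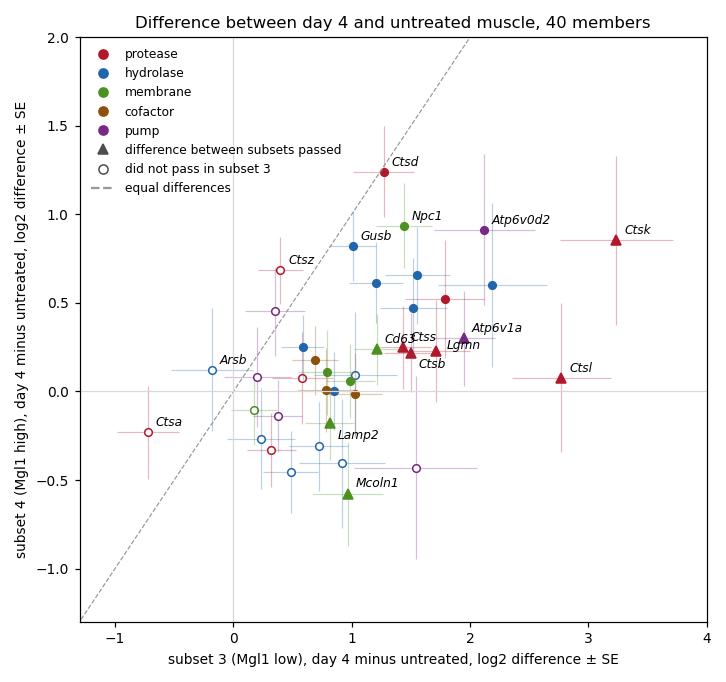
Difference between day 4 and untreated muscle in subset 3 (horizontal axis) and subset 4 (vertical axis), in log2 units with SE, 1 point per member and colour by class; filled points passed in subset 3, and triangles are the 9 members whose differences were unequal in the interaction test. Most members lie below the dashed line of equal differences, with Ctsl at 2.77 and 0.08 and Ctsk at 3.24 and 0.85, while Ctsd lies on it at 1.27 and 1.24.

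In untreated muscle, 6 of the 40 members were higher in subset 4 than in subset 3 and none was lower, against 5.27% and 2.79% of probes, and the median difference was 0.32 ± 0.24 against 0.05 over all probes. Ctsl was higher by 1.94 ± 0.42 (limma, adjusted p = 0.00731) and Lgmn by 1.32 (0.00727), Ctsc by 0.84 (0.0167), Ppt1 by 0.80 (0.0318), Ctsb by 0.76 (0.0438) and Cd63 by 0.67 (0.0471). Ctsb and Cd63 did not pass with the strain as a block. In subsets 4 and 3 of untreated muscle the summed signal was 1697 to 4181 and 478 to 678 for 5 fibroblast markers, 4606 to 5091 and 2575 to 3991 for the macrophage markers, and 88.5 to 178 and 318 to 539 for the monocyte markers. These ranges did not overlap, and the part of other cells was not tested. Pdgfra among the fibroblast markers (mean log2 intensity 5.06 against 5.80) and Cd14 among the macrophage markers (9.27 against 9.75) were lower in subset 4. The other fibroblast and macrophage markers were higher there. Of the monocyte markers, Plac8 was at 6.07 in subset 4 and 6.12 in subset 3. Atp6v1a was at 8.02, 8.11, 8.22 and 8.02 in subset 4 and at 7.78, 7.68, 6.58 and 7.23 in subset 3, with no overlap, and the difference of 0.78 did not pass (limma, adjusted p = 0.0831). Ctsk was not above background on 3 of the 4 arrays of subset 3 and 2 of the 4 of subset 4 and gives no order there. The array of few detected probes in subset 3, that of Ccl2-/-, held the lowest value of Ctsl, Ctsk, Glb1 and Atp6v1a, and without the 4 such arrays 3 of the members were higher in subset 4 of untreated muscle. Leaving out Ccl2-/- as a strain left 0, leaving out WT 2 and leaving out Cx3cr1-/- Ccl2-/- 2. The interaction likewise kept 3 members without these arrays, Ctsb, Ctsl and Atp6v1a, and 5 of the 9 passed when WT was left out and 0 when any of the mutant strains was. Without these 4 arrays 6.46% of probes were called higher in the comparison of the untreated subsets and 2.62% lower in the interaction.

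Within the injured muscle, the 4 subsets differed in 16 of the 40 members (limma F test, adjusted p under 0.05, 15320 probes), against 10.4% of all probes. These were 7 of 11 proteases (Ctsa, Ctsb, Ctsd, Ctsk, Ctsl, Ctss and Tpp1), 5 of 13 hydrolases (Gla, Glb1, Neu1, Sgsh and Arsb), 3 of 7 membrane proteins (Lamp1, Lamp2 and Npc1), Grn among the cofactors and none of the 6 pump genes. Fewer passed when a strain was left out, 8 of them on omission of WT, 7 on that of Cx3cr1-/-, 4 on that of Ccl2-/- and 3 on that of the double mutant. Ctsl, Ctsk and Glb1 passed under every alternative run.

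Most of the calls between subsets concerned subset 2. Against it, 21 members were higher in subset 3 and 2 were lower, compared with 9.03% and 4.3% of probes. The median difference was 1.11 ± 0.39 against 0.24 over all probes, and in 22 members all 4 arrays of subset 3 were higher, as for 14.6% of probes. Ctsl was at 4.71, 4.45, 5.25 and 4.43 in subset 2, with 1 of the 4 arrays above background, and at 8.06 to 8.72 in subset 3. The 2 groups did not overlap, with a fitted difference of 3.67 ± 0.32 against this mostly unmeasured level (limma, adjusted p = 6.96e-06). Ctsk went the other way and was at 10.60, 9.24, 10.04 and 10.43 in subset 2. Of these values, 3 were above all arrays of subset 3, and that of the array labelled Cx3cr1-/- was below the 9.36 of Ccl2-/-, and Ctsk was lower in subset 3 by 1.79 (limma, adjusted p = 0.0328). This call was lost when the arrays were scaled to 1 median (difference −0.60, adjusted p = 0.455), with no detection filter, and when WT or the double mutant was left out. The other member that was lower in subset 3 was Arsb, by 1.05 (0.0484), at 7.72, 7.06, 6.77 and 7.68 in subset 2 and at 6.00, 6.31, 6.17 and 6.55 in subset 3. Scaled to 1 median, which moved the median of all probes to 0.92 with 5950 higher and 178 lower against 1383 and 658, Arsb was at 0.03 and the sign of its difference was not kept. A second probe of Arsb had a difference of −0.04 after quantile normalization and did not pass (limma, adjusted p = 0.962). The 3 osteoclast markers with a probe summed to 380 to 434 in subset 2 and to 107 to 156 in subset 3, and their part in the level of Ctsk was not tested.

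Several other differences against subset 2 were widened by its 2 arrays of few detected probes, which are also those labelled Cx3cr1-deficient. Both held more summed signal of dendritic cell markers, 16842 and 11682, than WT (7877) and Ccl2-/- (8793). Detection, cell content and strain cannot be told apart here, and without the weak arrays only WT and Ccl2-/- remain in subset 2. Neu1 was at 8.46 and 8.57 in WT and Ccl2-/- of subset 2 and at 4.48 and 5.10 in the arrays labelled Cx3cr1-/- and Cx3cr1-/- Ccl2-/-, both not above background. Its difference of 2.81 (limma, adjusted p = 0.0225) did not pass without the weak arrays. Gusb was at 9.53 and 9.70 against 4.67 and 8.24, Scarb2 at 9.38 and 9.24 against 4.75 and 7.29, and Sgsh at 8.15 and 7.17 against 4.86 and 4.96. Lamp1 was at 10.39 and 10.41 against 8.21 and 9.15, and Grn at 10.58 and 10.57 against 7.74 and 9.25. In each of these genes the 2 weak arrays held the lowest values of the subset. The calls of Scarb2 and Sgsh were also lost without the weak arrays, while those of Gusb, Lamp1 and Grn were kept. Without the weak arrays 11 members were higher than in subset 2 and 1 lower, against 5.2% and 2.92% of probes. Of these, 10 were among the 23. Leaving out WT, Cx3cr1-/-, Ccl2-/- or Cx3cr1-/- Ccl2-/- gave 15, 9, 14 and 3 calls. No share of all probes is given for the fits without a strain, so these counts do not set the members apart from other probes. Only Ctsb, Ctsl and Glb1 kept the call in all alternatives. Ctsb was at 11.59, 11.15, 11.59 and 11.74 in subset 2 and at 13.03, 12.75, 13.23 and 12.84 in subset 3, and Glb1 at 6.29, 4.96, 6.91 and 7.10 against 8.92, 8.99, 8.48 and 8.89, with no overlap in either. The signal of dendritic cell markers was higher in subset 2 than in subset 3, in ranges given above, and its part in these differences was not tested.

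**Figure D4:**
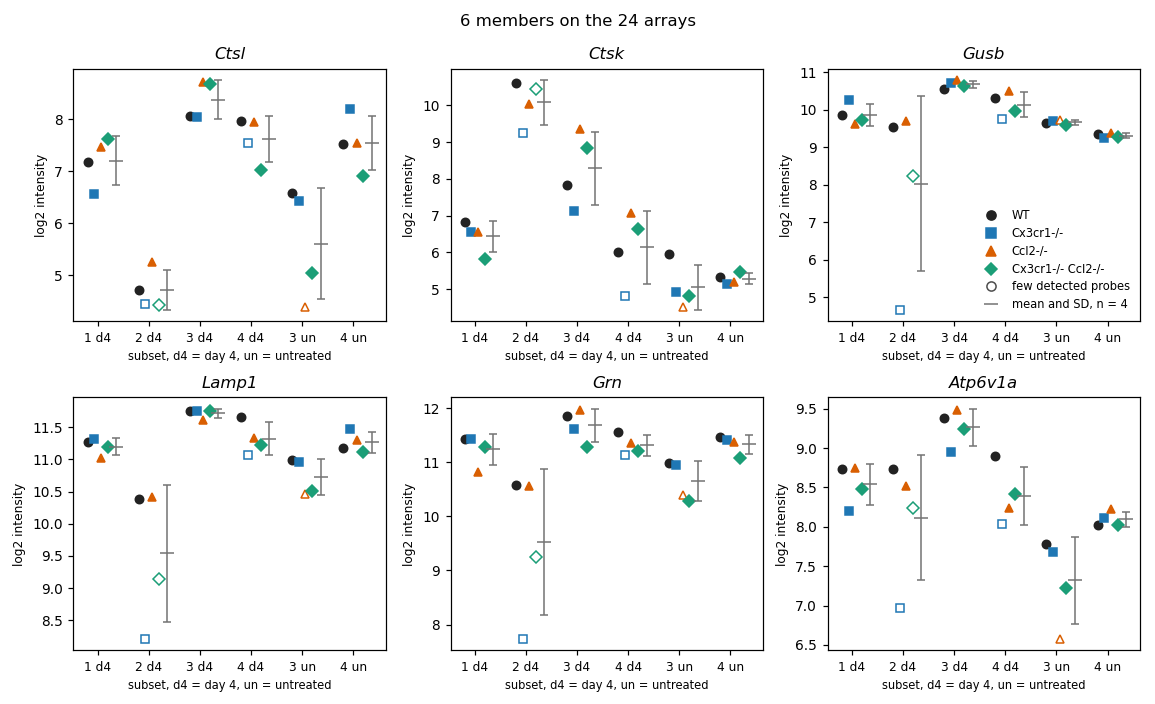
Log2 intensity of Ctsl, Ctsk, Gusb, Lamp1, Grn and Atp6v1a on the 24 arrays by group, with the mean and SD of the 4 strains; open symbols are arrays with few detected probes. Ctsl is lowest in subset 2 (4.71 ± 0.38) where Ctsk is highest (10.08 ± 0.61), and the open symbols are the lowest points of Gusb, Lamp1 and Grn in that subset.

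Between subset 3 and subset 1, the Ly6Chigh cells, no member passed (limma, 0.268% of probes called in either direction). The difference was positive in 35 of 40, with a median of 0.45 ± 0.18 against 0.00 over all probes, and in 15 members all 4 arrays of subset 3 were above those of subset 1, as for 8.73% of probes. The largest were Ctsk (1.85), Atp6v0d2 (1.83), Glb1 (1.70) and Ctsa (1.66), with adjusted p of 0.145 to 0.249. Atp6v0d2 was at 5.75, 5.41, 5.36 and 5.03 in subset 1, all below the 6.63 to 8.15 of subset 3, and passed with the strain as a block (adjusted p = 0.0239). Glb1 was at 6.93, 7.70, 6.95 and 6.88 in subset 1, also below all arrays of subset 3. Without the 3 weak day-4 arrays, which belong to neither subset but enter the shared spread, 8 members were higher in subset 3, namely Ctsb, Ctsk, Ctsl, Glb1, Gusb, Naglu, Npc1 and Atp6v0d2, where 2.91% of probes were called higher, and 2 passed when Cx3cr1-/- was left out.

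Between subset 4 and subset 3 on day 4, no member passed either (0.268% of probes called). The difference was negative in 35 of 40, with a median of −0.40 ± 0.21 against −0.19 over all probes, and in 12 all 4 arrays of subset 4 were below those of subset 3, as for 8.77% of probes. Ctsk was at 6.00, 4.81, 7.08 and 6.65 in subset 4, 3 of them above background, and all lay below subset 3 (difference −2.16, adjusted p = 0.0754). Ctss was at 11.60, 11.004, 10.98 and 10.77 against 12.66, 12.14, 12.21 and 11.93 (−1.15, 0.0624). Both passed with the strain as a block (limma, adjusted p = 0.0240 and 0.0270), and both without the weak arrays (0.0330 and 0.0202), where 1.98% of probes were called lower.

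Strain differences were compared over subsets 1 and 3 on day 4, the subsets with no weak array. In Ccl2-/- against the other 3 strains, 1 member was lower and none higher, against 0.47% of probes called lower. This was Ctsa, by 1.39 ± 0.25 (limma, adjusted p = 0.0421), at 7.39 in Ccl2-/- subset 1 against 9.65, 9.96 and 8.41 and at 9.89 in subset 3 against 10.96, 11.08 and 10.10. Ccl2-/- was lowest in both subsets, while the 3 other probes of Ctsa had differences of −0.63, −0.20 and −0.04 and did not pass, and over all 4 day-4 subsets no member passed. After quantile normalization, the only scaling for which signs were counted here, all 13 hydrolases had a negative difference, with a median of −0.33 and no call, the largest being Lipa (−0.97, adjusted p = 0.0845), Sgsh (−0.83) and Man2b1 (−0.80). A second probe of Sgsh, not the one with the highest mean, had −1.23 and passed (limma, adjusted p = 0.0355). The medians were −0.10 in the proteases, −0.18 in the membrane proteins, 0.19 in the cofactors and 0.09 in the pump, against 0.00 over all probes. As centred log2 intensity, the hydrolase median in subset 1 was −0.57 in Ccl2-/- and −0.25 in Cx3cr1-/- Ccl2-/-, against 0.55 in WT and 0.43 in Cx3cr1-/-. In subset 3 it was 0.37 and 0.45, against 0.95 and 0.76. The double mutant thus lay nearer to Ccl2-/- than to the strains it was pooled with here. For Cx3cr1 deficiency no member passed, against 0.0416% of probes, and 20 differences were positive and 20 negative. The largest was that of Atp6v0d2, −0.62 ± 0.18 (limma, adjusted p = 0.626).

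A list of 61 other lysosome genes, of which 46 were tested in subsets 3 and 4, was read in the same way. In subset 3, 20 were higher on day 4 and 2 lower, against 9.06% and 6.42% of all tested probes. The median difference was 0.83, against 0.98 in the members and 0.10 over all probes. Gpnmb, a glycoprotein gene of lysosomes and melanosomes, rose by 5.64 ± 0.75 (limma, adjusted p = 8.17e-05), and in subset 4 by 4.22 (0.00504). Of 9 further V-ATPase genes, 4 rose in subset 3, among them Tcirg1, of the a3 subunit (1.84), and Atp6v1d (1.57), the latter also called in the interaction (−1.302, adjusted p = 0.0232). Igf2r and Sort1, receptors that deliver enzymes to the lysosome, rose in both subsets, Igf2r by 1.69 and 2.91 and Sort1 by 1.01 and 1.38. Of the cathepsin inhibitors, 2 of 3 tested rose in subset 3, Cstb by 1.46 and Serpinb6a by 0.89. Of the transcription factors, Tfec rose in subset 3 (1.67), Mitf fell (−1.09), Tfe3 was at 0.02 and Tfeb did not enter the test. Against subset 2, subset 3 was higher in 16 of 46 and lower in 1, compared with 9.03% and 4.3% of probes.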

How the data were processed

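RNA of subsets sorted by flow cytometry was amplified (Ovation Pico WTA, NuGEN) and hybridised to Illumina whole mouse genome arrays, 1 array for each of 4 strains in each of 6 groups. The authors deposited array intensities that were not normalized, on a linear scale, and beside each a detection p-value against the negative controls of the array. The submitters' processing notes name GenomeStudio without a version. The authors also deposited processed intensities, which lay within 0.0276 log2 units of the quantile-normalized signals and served as an alternative.

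The neqc function of limma 3.58.1 (R 4.3.3) took the intensities and detection p-values, subtracted background by normexp, added an offset of 16, quantile-normalized the arrays and returned log2 values. Tests were limited to probes with a detection p under 0.05 on 8 or more of 16 arrays, the rule of the study's methods, or on 4 of 8. Groups came from the sample labels, and 3 fits were made with lmFit and eBayes: the 4 day-4 subsets, subsets 3 and 4 with and without injury and their interaction, and the strains over subsets 1 and 3 with the subset as covariate. The p-values were adjusted by Benjamini and Hochberg over all tested probes, with a threshold of 0.05. Probes were named from the platform annotation (34885 with 1 symbol, 18 with several, 10378 with none). The members, their classes and the other lists were chosen with earlier results of these data known. Values per array are given for up to 4 members of a class with the widest range of group means among those that passed a test, and for the member with the narrowest range; Ctsb, Ctsd, Ctss and Arsb were added after their values were seen. The fits were tested on simulated data. The number of arrays limits the precision, slide and scan date are unknown here, and no 2 arrays held identical values.

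Same-numbered arrays are paired by design, since the 4 day-4 subsets of a strain come from 1 pool of mice. After removal of subset means, the 24 pairs of arrays of the same strain correlated with a median of 0.162 (−0.00229 to 0.441, 20 above 0.1) and the 72 pairs of different strains with −0.0618. The fit without the block follows the study's one-way test. The alternatives tried were the processed values, scaling to 1 median, omission of the background correction, other detection filters, a trended prior variance, any probe of a member, the strain as a block, the pool as a random block, and leaving out weak arrays or a strain.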

Additional observations from a re-analysis of the deposited data

Results flagged for a closer look

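In 14 of the 240 sets of 4 arrays examined (40 members in 6 groups), 1 array lay apart from the other 3 by Dixon's criterion, which chance alone meets in about 1 in 20. In subset 2, the array labelled Cx3cr1-/- was low in Ppt1 (5.18, the nearest array at 8.67), and WT was high in Mcoln1 (5.94, nearest 4.73). In untreated subset 3, the Ccl2-/- array of few detected probes was low in Glb1 (4.89, nearest 7.06), and WT was high in Lipa (8.19, nearest 7.66). In subset 1, Cx3cr1-/- was high in Glb1 (7.70, nearest 6.95) and Ccl2-/- in Npc2 (13.35, nearest 12.73). In untreated subset 4, Cx3cr1-/- Ccl2-/- was high in Atp6v1b2 (10.45, nearest 9.43) and low in Asah1 (10.51, nearest 10.76) and Atp6ap1 (12.00, nearest 12.39), and Ccl2-/- was high in Ctsd (8.21, nearest 7.92). In subset 4 on day 4, Ccl2-/- was low in Ctsa (11.23, nearest 11.32) and the array labelled Cx3cr1-/- was high in Arsb (7.30, nearest 6.36). In subset 3 on day 4, Ccl2-/- was low in Lamp1 (11.62, nearest 11.74) and Cx3cr1-/- in Atp6v1b2 (9.72, nearest 10.03).

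The change from untreated to injured muscle differed between subsets 4 and 3 by the limma interaction for 9 members, by −2.69 in Ctsl, −2.38 in Ctsk, −1.65 in Atp6v1a, −1.54 in Mcoln1, −1.48 in Lgmn, −1.28 in Ctsb, −1.19 in Ctss, −0.996 in Lamp2 and −0.98 in Cd63 (log2 units). None of these calls held under all the alternatives run, and 70 of the 114 pairs of member and alternative kept it.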

How the results depend on the processing

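The 25 rises in subset 3 depended least on the processing: 16 passed under all alternatives run, and leaving out a strain gave 17 to 23 calls. Of the other calls, 3 of 23 between subsets 3 and 2 and 3 of 16 of the F test held throughout, and none of the others. Counts of members that moved by over 1.5 times were as follows, and the causes were not tested. Scaled to 1 median, the count was 1 for subset 3 against 1 (0 as reported), 35 for subset 3 against 2 (23), 3 for subset 4 against 3 on day 4 (0), 0 for subset 4 after injury (4), 2 for the untreated subsets (6), 29 for the interaction (9) and 0 for Ccl2-/- (1). The difference of Arsb between subsets 3 and 2 reversed to 0.031. Without background correction, and likewise on the authors' processed values, it was 1 for subset 3 against 1, 1 for subset 4 against 3 and 3 for Ccl2-/-. With no detection filter it was 9 for the F test, 13 for subset 3 against 2, 1 for subset 4 against 3 and 0 for Ccl2-/-, and with probes detected on every array, which leaves 24 members, 13 and 1 for the same 2 contrasts. A trended prior gave 1 for subset 4 against 3 and 3 for Ccl2-/-. Without the weak arrays it was 8 for subset 3 against 1, 12 against 2, 2 for subset 4 against 3, 3 for the untreated subsets and 3 for the interaction. The strain as a replicate block gave 1 for subset 3 against 1 and 2 for subset 4 against 3, and other counts within 1.5 times. Any probe of a member gave 2 for Ccl2-/-, and all 4 day-4 subsets 0. Leaving out a strain gave 3 to 8 in the F test, 0 to 2 for subset 3 against 1, 3 to 15 against 2, 0 to 1 for subset 4 after injury, 0 to 4 for the untreated subsets and 0 to 6 for the interaction. A plain one-way analysis of variance, the methods' test, gave 16 at an unadjusted threshold of 0.01 and 11 after Benjamini-Hochberg. Shares of all probes called are not given beside the counts of this paragraph, nor beside those with a strain left out above. The counts show how the calls moved with the processing and not how the members compare with other probes.

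The median difference of the members less that of all probes kept its sign. It was 0.88 for subset 3 against 2, and 0.77 without background correction, 1.12 scaled to 1 median, 0.77 on the processed values, 1.14 with no filter, 1.21 with probes detected on every array and 0.65 without weak arrays. For subset 3 after injury it was 0.88, and 0.71, 0.93, 0.71 and 0.997 under the first 4 of these and 0.82 without weak arrays, with 0.81 to 0.89 when a strain was left out. For subset 4 after injury it was 0.23, and 0.14 without background correction, 0.14 on the processed values, 0.10 with no filter and 0.099 with every array. For subset 4 against 3 on day 4 it was −0.20, and −0.41 with no filter, −0.31 with every array and −0.28 to −0.15 when a strain was left out. For the interaction it was −0.65, and −0.51 without background correction, −0.50 on the processed values, −0.94 with no filter and −0.52 without weak arrays. For Ccl2-/- it was −0.13, and −0.22 in subset 1 alone. Differences of probes near background, such as Ctsk, Mcoln1 and Atp6v0d2, are limited by signal over background, and 24 members were detected on all arrays.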
